A study of Mus musculus with 6 samples.

Results

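The genes described here encode the glutaredoxin, thioredoxin, peroxiredoxin and glutathione enzymes, the enzymes that remove superoxide and peroxide, the regulators of the transcription factor NRF2, and enzymes of ferroptosis defence. They were chosen by name, 40 genes in all, and 38 of them had a row among the 12327 genes of the deposited table. Gsta4 and Nqo1 had no row and were not analysed here. All 38 passed the filter on low values and were tested among 12222 genes. The cells were BV2, a mouse microglial line that was immortalised and is grown in high-glucose medium with fetal bovine serum, and their RNA was sequenced. The knockdown group (3 libraries) had been infected for 48 hours with an adenovirus, Ad-shGCH1, against GCH1, the enzyme that starts tetrahydrobiopterin (BH4) synthesis. The negative control group, Ad-NC (3 libraries), came from the same subline. The labels leave it unclear whether the control cells received a virus, so infection and knockdown cannot be told apart. Nothing in them says that each library had its own culture, so the p-values below reflect the spread among the 3 libraries of each group, which may be technical.

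Cells keep protein thiols reduced by a pair of systems that draw electrons from NADPH. In the thioredoxin system, thioredoxin reductase recharges thioredoxin, which in turn recharges most peroxiredoxins. In the glutathione system, glutathione reductase recharges glutathione, which glutaredoxins, glutathione peroxidases and glutathione transferases use. NRF2 (gene Nfe2l2) switches on many of these genes when KEAP1 no longer marks it for destruction, and BACH1 represses some of them. Microglia need these enzymes because their NADPH oxidase and nitric oxide synthase make reactive oxygen and nitrogen species, and BH4 is itself an oxidisable cofactor of nitric oxide synthase.

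NRF2 acts through the antioxidant response element, whose core is TGACNNNGC. Promoters of 36 of the 40 genes were matched in a RefSeq table (GRCm38.p6), each window running from 250 bases before to 50 after a start site; Prdx6, Gclc, Gsr and Gsta4 had no entry. Read on both strands, the core was present in at least 1 window of 7 matched genes (19.4%), against 14.0% of all 27025 genes in that table. Counted by window, it was in 7 of 48 (14.6%), against 12.4% of all 32851 windows. The core can overlap an AP-1 site, TGACTCA, as in Prdx1. The 7 matches are shown so that each core can be set beside the expression values of its gene. Each is written 5′ to 3′ on the strand that carries the core, with the core in capitals and up to 10 bases on each side.
Prdx1, chr4:116685456-116685484, minus strand: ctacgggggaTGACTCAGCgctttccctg
Gclm, chr3:122245413-122245441, minus strand: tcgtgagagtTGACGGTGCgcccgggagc
Mgst1, chr6:138140461-138140489, minus strand: ccccgcctccTGACCGTGCcaagccccgc
Sod1, chr16:90220696-90220724, minus strand: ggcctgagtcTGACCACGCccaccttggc
Srxn1, chr2:152105542-152105570, minus strand: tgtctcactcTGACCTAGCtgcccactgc
Txnrd1, chr10:82859104-82859132, minus strand: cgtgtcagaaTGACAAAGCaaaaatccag
Nfe2l2, chr2:75704885-75704913, minus strand: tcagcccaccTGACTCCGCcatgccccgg
The log2 fold changes of these 7 genes ranged from -0.09 for Txnrd1 to 0.30 for Mgst1, with a median of 0.06, and none passed the test. A match is a string of letters and does not show that NRF2 binds there.

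Glrx2, the only gene of the 38 to pass the test, had 4 windows and the core in 0 of them. The 250 bases before one of its start sites are shown because of that call. This start lies 11 bases from the start of the transcript that GENCODE tags as principal, and capitals mark each CG.
Glrx2, chr1:143739318-143739567, GRCm38.p6, plus strand: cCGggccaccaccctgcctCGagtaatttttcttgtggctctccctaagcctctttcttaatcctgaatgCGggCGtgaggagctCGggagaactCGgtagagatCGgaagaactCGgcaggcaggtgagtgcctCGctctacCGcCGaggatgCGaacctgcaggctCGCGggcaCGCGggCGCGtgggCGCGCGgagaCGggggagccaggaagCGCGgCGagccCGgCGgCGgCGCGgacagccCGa
The stretch is 67.6% G and C with 31 CG pairs, whereas the median over all windows, cut to the same 250 bases, was 52.4% and 6.

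The targeted gene checked the labels. Gch1 (ENSMUSG00000037580.10; GRCm38 chromosome 14, 47153895 to 47189413) stood at 6.89, 7.22 and 7.23 FPKM (fragments per kilobase of transcript, scaled to the mapped total) in the controls. It stood at 3.20, 2.93 and 3.43 FPKM in the knockdown libraries, 44.8% of control by the means. Estimated depth was 5.25 to 5.58 Gb of aligned sequence in the controls and 6.32 to 7.61 Gb in the knockdown libraries, without overlap, and the part of depth in the results was not tested. All 10 microglia and macrophage markers listed had a row, and their summed level was 1279 to 1299 FPKM in control and 1219 to 1280 FPKM in knockdown libraries. In 3 of the 10 every knockdown library lay below every control, against 8.36% of all genes tested. In 0 every knockdown library lay above, against 9.99%. Of 5 neuron markers none had a row, and of 5 each for astrocytes, oligodendrocytes, fibroblasts and mural cells, endothelial cells and lymphocytes, 1 or 2 had one. Not all of these were low. The astrocyte marker Aldoc was at 24.8 to 28.6 FPKM in control and 24.7 to 26.3 FPKM in knockdown libraries. The endothelial markers Flt1 and Vwf summed to 26.4 to 27.4 and 26.2 to 28.8 FPKM. Cnp was at 4.89 to 5.52 and 5.10 to 5.80 FPKM, and Acta2 and Lck at about 1 FPKM or less. In bulk RNA, fewer cells of a type and less RNA per cell cannot be told apart.

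In these cells the redox system was expressed from a few to over 200 FPKM. Most of its genes had levels in the knockdown libraries near those of the controls, as did most of all genes tested. On the log2(FPKM + 1) scale, 95% intervals of the difference lay within 1.5-fold for 37 of 38 genes and for 95.2% of all genes. Control means ran from 1.68 FPKM for Glrx2 to 215 FPKM for the cytosolic superoxide dismutase Sod1, with a median of 29.5 FPKM against 6.42 FPKM over all genes tested. After Sod1 came the thioredoxin inhibitor Txnip (206 FPKM), Prdx1 (159 FPKM), Txn1 (107 FPKM) and Gstm1 (103 FPKM). At the low end stood the glutathione synthase Gss (3.14 FPKM), the cytosolic glutaredoxin Glrx (2.93 FPKM) and Glrx2. The median coefficient of variation between libraries of a group was 4.46% in the controls and 3.79% after knockdown, against 6.39% and 5.52% over all genes.

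**Figure D1:**
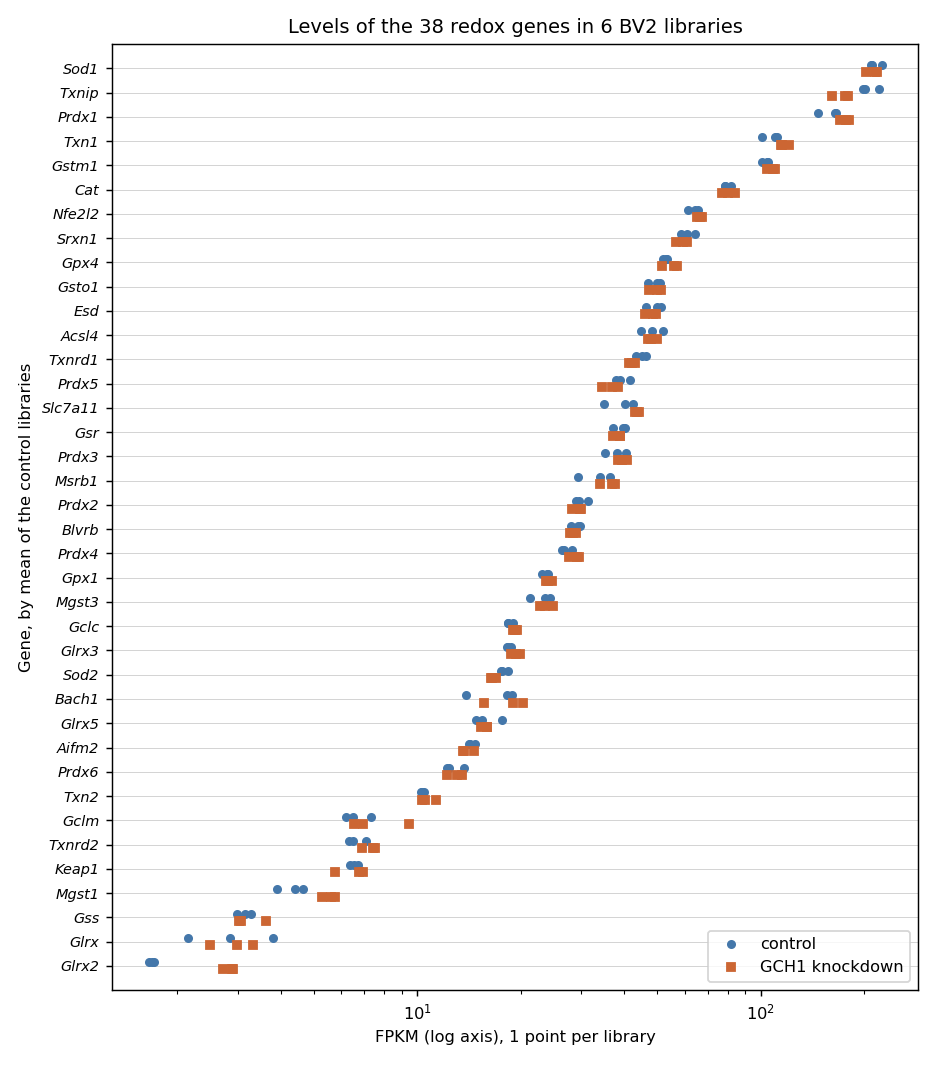
FPKM of the 38 genes in each library on a log axis, ordered by the control mean; circles are control libraries and squares knockdown libraries, 3 each. Most genes show both groups on top of each other between about 3 and 200 FPKM, and Glrx2, at the bottom, shows them apart.

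A single gene of the 38, Glrx2, passed the test (limma on log2(FPKM + 1), Benjamini-Hochberg (BH) adjusted p below 0.05 over all 12222 genes), and it was higher after knockdown. The background share was 0.0818% in either direction, 0.0245% higher and 0.0573% lower. At an unadjusted p under 0.05 there were 6 of 38 genes, 4 higher (Glrx2, Mgst1, Prdx1 and Txn1) and 2 lower (Txnip and Sod2). This compares with 11.3% of all genes (6.47% higher and 4.82% lower). Without knockdown library 2 or 3 there were 3, and the share of all genes in those fits is not given here. Groups did not overlap in 9 of 38 (23.7%), 6 above control and 3 below, against 18.4% of all genes (9.99% above and 8.36% below). Of these 9, the 3 not yet named were Gclc and Slc7a11 above and Txnrd1 below. Without control library 2 the count was 14 of 38, against 33.9% of all genes without that library. A positive log2 fold change was seen in 25 of 38 genes, against 53.0% of all genes, and the median was 0.03, against 0.01 over all genes. On the log2(FPKM + 1) scale, the 95% interval lay within 1.5-fold in either direction for 37 of 38 genes, all but Glrx2. It did so for 95.2% of all genes. That scale compresses low genes, so a larger fold change in FPKM can lie within these bounds. A p that misses the threshold does not show that a level was unchanged. These intervals give the size of change that the libraries allow on that scale, not in FPKM.

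**Figure D2:**
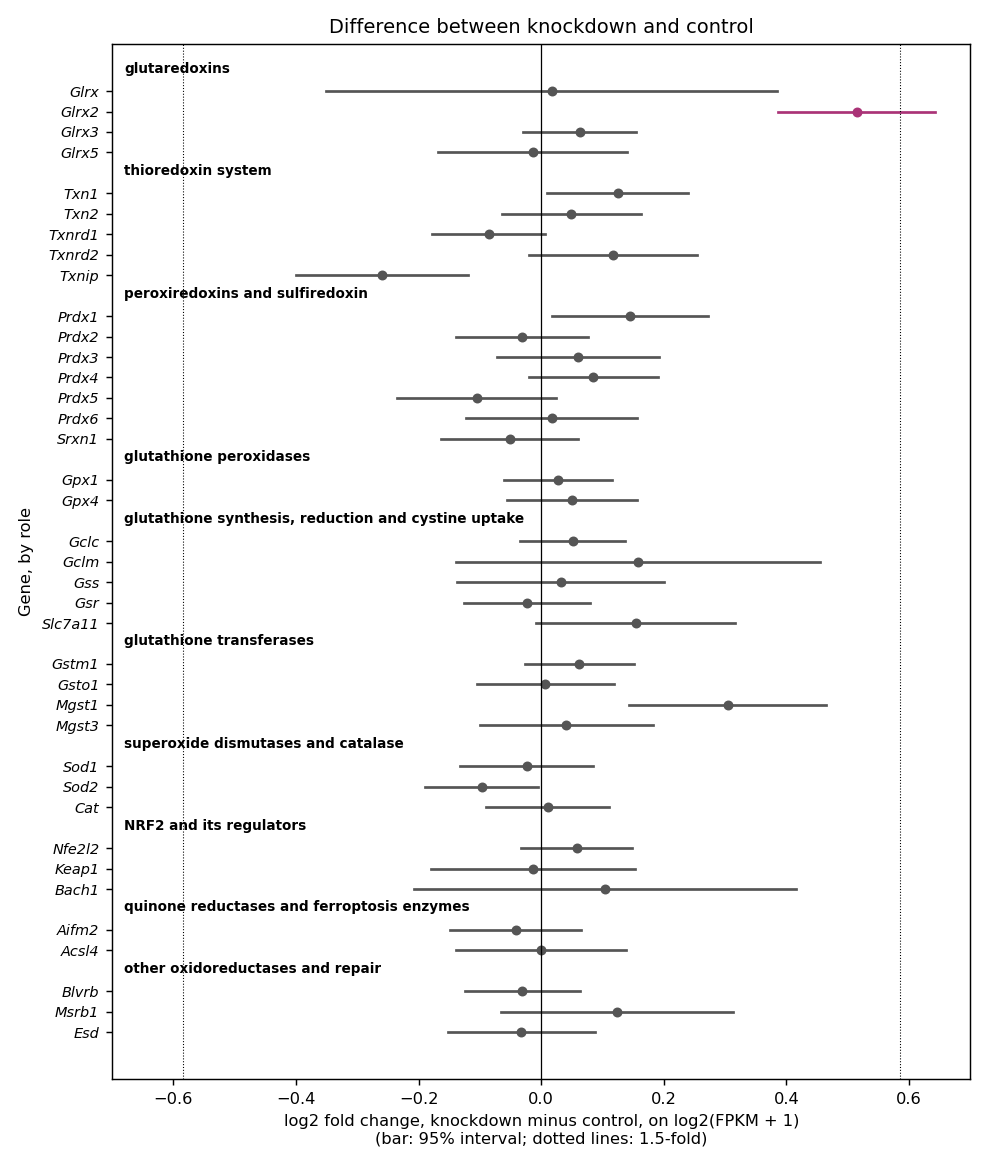
Log2 fold change of each gene on the scale of log2(FPKM + 1), knockdown minus control, by role; points are estimates, bars 95% intervals from limma, and dotted lines mark 1.5-fold in either direction. The interval of Glrx2 runs from 0.39 to 0.64 and crosses the right dotted line, and the other 37 intervals lie between the dotted lines.

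Among the glutaredoxins, 1 of 4 rose and 3 did not pass. Glrx2, a glutaredoxin with a mitochondrial form, reduces mixed disulfides between proteins and glutathione and can bind an iron-sulfur cluster. Which form of the enzyme its transcripts encoded here was not analysed. The gene lies on GRCm38 chromosome 1, 143716338 to 143749676, plus strand (ENSMUSG00000018196). Its control values were 1.65, 1.71 and 1.68 FPKM. In the knockdown libraries it was at 2.90, 2.88 and 2.71 FPKM. All 3 knockdown libraries lay far above all 3 controls, and within each group the values were close, at a coefficient of variation of 1.90% and 3.71%. The means were 1.68 ± 0.03 and 2.83 ± 0.10 FPKM (SD, n = 3 each), so the knockdown mean was 168.3% of control in FPKM. On the log2(FPKM + 1) scale, which compresses low genes, this is a difference of 0.51 (95% interval 0.39 to 0.64, SE 0.05, with a limma BH adjusted p of 0.0362). A two-sided exact permutation test over the libraries gave p = 0.1, and no smaller value is possible with 3 against 3. With any 1 of the 6 libraries left out the call was lost, at a limma BH adjusted p of 0.0796 to 0.163, while the log2 fold change stayed between 0.50 and 0.54.

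The level of Glrx2 is a sum over 13 annotated transcripts, of which 5 are protein-coding with lengths of 580 to 3515 bases; levels of single transcripts were not analysed here. Depending on which coding length applies, the control values rest on about 5200 to 32600 aligned bases per library, and the knockdown values on about 9900 to 77500. No exon of Glrx2 overlaps an exon of another annotated gene. Cdc73 lies on one side of Glrx2, 13444 bases away, and Trove2 on the other, 1113 bases away and read toward Glrx2. Whether another annotated gene lies nearer was not checked. The log2 fold changes of these neighbours were 0.10 (SE 0.06, limma BH adjusted p = 0.554) for Cdc73 and 0.14 (SE 0.09, limma BH adjusted p = 0.574) for Trove2.

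**Figure D3:**
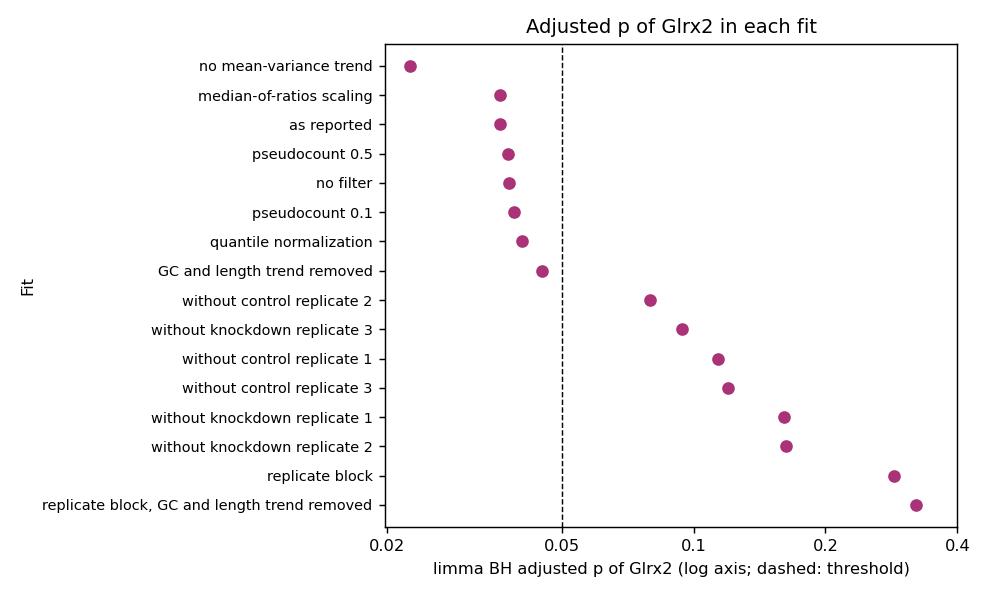
Limma BH adjusted p of Glrx2 (log axis) as reported and in each other fit that tested it; the dashed line marks the threshold of 0.05. The fits that change scaling, pseudocount, filter or variance trend, or remove the GC and length trend, lie between 0.0226 and 0.0452, and those that drop a library or add a block for the replicate number lie between 0.0796 and 0.321.

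The other glutaredoxins did not show a difference of that size. Glrx, the cytosolic enzyme, was at 2.84, 3.80 and 2.14 FPKM in the controls, and the knockdown libraries had 2.49, 2.99 and 3.32 FPKM. Its groups overlapped throughout, and its 95% interval, -0.35 to 0.38 on the log2(FPKM + 1) scale, was the widest among the glutaredoxins. Glrx3, a cytosolic monothiol glutaredoxin of iron handling, was at a log2 fold change of 0.06 (interval -0.03 to 0.16). Glrx5, which passes on iron-sulfur clusters in mitochondria, was at -0.01 (interval -0.17 to 0.14). The upper bounds of Glrx3 and Glrx5 lie below the lower bound of Glrx2; the difference between the genes was not itself tested.

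In the thioredoxin system 0 of 5 genes passed. Txnip, which binds thioredoxin and restrains glucose uptake, was at 200, 221 and 198 FPKM in the controls. After knockdown it was at 176, 161 and 180 FPKM. Each knockdown library lay below each control (log2 -0.26, SE 0.06; limma BH adjusted p = 0.269). An antisense gene, Gm15441, covers 19.4% of the exon bases of Txnip, and the strand setting of the authors' counting is not given in the sources used here. Txn1, the cytosolic thioredoxin, was at 111, 110 and 100 FPKM in the controls, against 115, 115 and 121 FPKM in the knockdown libraries. Its groups were also apart, by a smaller margin (log2 0.13, SE 0.05; limma BH adjusted p = 0.405). Without control library 3, the lowest, the difference was 0.08. Txnrd1, the cytosolic reductase that recharges Txn1, was at 46.3, 45.1 and 43.2 FPKM and then at 43.0, 41.4 and 42.2 FPKM (log2 -0.09, SE 0.04, limma BH adjusted p = 0.477). The mitochondrial partners Txn2 (log2 0.05, interval -0.06 to 0.16) and Txnrd2 (log2 0.12, interval -0.02 to 0.25) had groups that overlapped.

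Of the peroxiredoxins, which remove hydrogen peroxide, most of them with electrons from thioredoxin, and sulfiredoxin, 0 of 7 passed. Prdx1, the most abundant of them and cytosolic, was at 165, 165 and 147 FPKM in the controls. After knockdown it was at 170, 180 and 177 FPKM. The knockdown libraries were all higher (log2 0.14, SE 0.05; limma BH adjusted p = 0.387), and the difference without control library 3 was 0.09. The cytosolic Prdx2 (-0.03), the mitochondrial Prdx3 (0.06), Prdx4 of the endoplasmic reticulum (0.08), Prdx5 (-0.11) and Prdx6 (0.02) had overlapping groups at the log2 fold changes given. Srxn1, sulfiredoxin, which restores over-oxidised peroxiredoxins and is a classical NRF2 target, was at 61.1 ± 2.9 FPKM in control cells, against 58.9 ± 2.1 FPKM in knockdown cells (SD, n = 3 each). Trmt112, on the opposite strand, covers 19.1% of the exon bases of Prdx5.

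Glutathione synthesis, recycling and cystine import had 0 of 5 genes past the test. In this group 4 of 5 log2 fold changes were above 0, against 53.0% of all genes, and the sign of Gss was not kept in every alternative fit. Slc7a11, the cystine and glutamate antiporter that limits glutathione synthesis, was at 40.3, 42.3 and 34.9 FPKM in the controls, against 44.1, 43.0 and 43.6 FPKM with the knockdown. The groups were apart only narrowly, and control library 3 was the lowest by far. The difference was 0.15 on the log2 scale (SE 0.07; limma BH adjusted p = 0.466), and 0.08 without that library. Gclc, the catalytic subunit of glutamate-cysteine ligase, was at 18.3, 18.9 and 18.4 FPKM and then at 19.5, 19.2 and 19.0 FPKM, a narrow gap of log2 0.05 (limma BH adjusted p = 0.615). Gclm, its modifier subunit, was at 6.50, 7.33 and 6.21 FPKM in the controls, against 9.45, 6.94 and 6.54 FPKM with the knockdown. A single knockdown library, the first, stood above the rest, so the interval was wide (log2 0.16, -0.14 to 0.46). Gss, which completes glutathione (0.03), and Gsr, which reduces it (-0.02), had overlapping groups.

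The glutathione peroxidases Gpx1, which removes hydrogen peroxide, and Gpx4, which removes lipid hydroperoxides and holds off ferroptosis, did not pass. Their log2 fold changes were 0.03 (interval -0.06 to 0.12) and 0.05 (interval -0.06 to 0.16). Of the 4 glutathione transferases with a row, 0 passed and all 4 log2 fold changes were above 0, against 53.0% of all genes. The signs of Gsto1 and Mgst3 were not kept in every alternative fit. Mgst1, the microsomal enzyme that also reduces lipid hydroperoxides, was at 3.90, 4.65 and 4.39 FPKM in the controls. After knockdown it was at 5.28, 5.61 and 5.75 FPKM. Every knockdown library was higher than every control, and the knockdown mean was 128.7% of control. The difference of 0.30 on the log2 scale (SE 0.07; limma BH adjusted p = 0.262) was the largest of the 38 after Glrx2. Gstm1 (0.06), Gsto1 (0.01) and Mgst3 (0.04) had overlapping groups; Gstm1 belongs to a family of similar genes between which reads can be divided, so its level is uncertain.

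**Figure D4:**
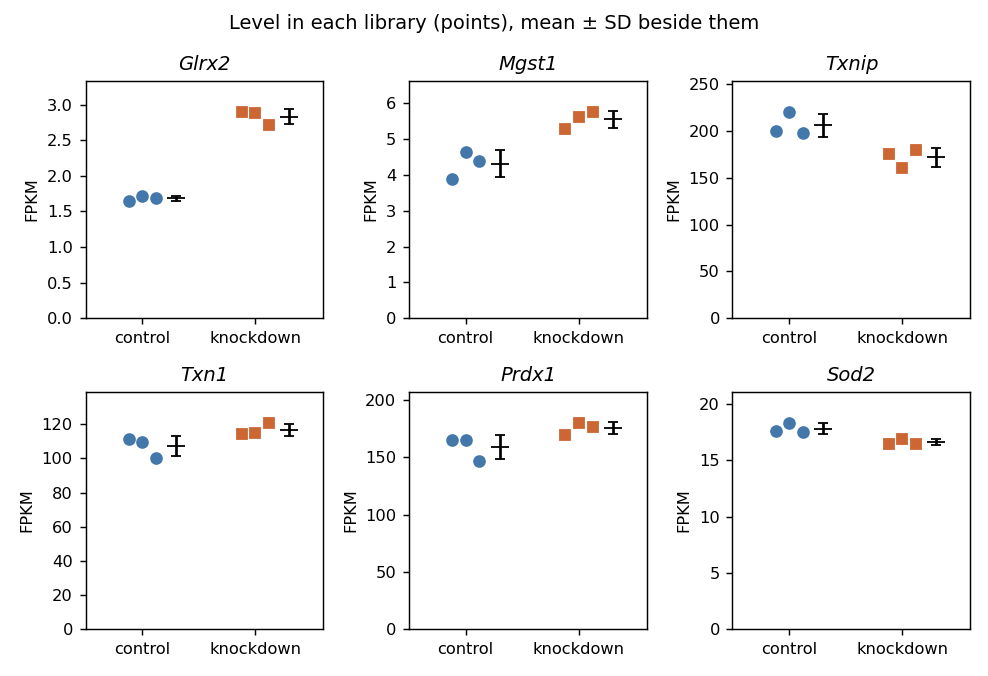
FPKM of Glrx2 and of the 5 other genes at an unadjusted p under 0.05 in each of the 3 control (circles) and 3 knockdown (squares) libraries, with mean ± SD beside the points and each axis starting at 0. The gap between groups is wide for Glrx2 (1.65 to 1.71 against 2.71 to 2.90 FPKM), and narrow for Txn1, Prdx1 and Sod2.

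Superoxide dismutases and catalase showed 0 of 3 genes past the test. Sod2, the mitochondrial manganese enzyme, was at 17.6, 18.4 and 17.5 FPKM in the controls, against 16.5, 16.9 and 16.4 FPKM in the knockdown libraries. All 3 knockdown libraries were lower, by a small margin (log2 -0.10, SE 0.04, limma BH adjusted p = 0.417). Sod1, the cytosolic copper and zinc enzyme, was at 215 ± 9 and 211 ± 8 FPKM. Catalase (Cat), the peroxisomal enzyme that splits hydrogen peroxide, was at 79.7 ± 1.7 and 80.3 ± 3.6 FPKM (SD, n = 3 each). On the log2 scale their 95% intervals ran from -0.13 to 0.09 for Sod1 and from -0.09 to 0.11 for Cat.

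The NRF2 regulators had 0 of 3 genes past the test. Nfe2l2 was at 65.7, 61.3 and 64.3 FPKM in the controls, against 67.5, 65.3 and 66.4 FPKM in the knockdown libraries, with overlap (log2 0.06, interval -0.03 to 0.15). Keap1, the adaptor that holds NRF2 in check, was at 6.54 ± 0.18 and 6.49 ± 0.64 FPKM (SD, n = 3 each; log2 -0.01, interval -0.18 to 0.15). Bach1, the heme-sensing repressor, varied most of the 3, from 13.9 to 18.9 FPKM in control libraries and from 15.7 to 20.2 FPKM after knockdown (log2 0.10, interval -0.21 to 0.42). These are transcript levels, and NRF2 is controlled largely through the stability of its protein, which was not measured.

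Of the remaining enzymes none passed. Aifm2, also called FSP1, which regenerates coenzyme Q against lipid peroxidation, was at a log2 fold change of -0.04 (interval -0.15 to 0.07). Acsl4, which loads polyunsaturated fatty acids into membranes and so favours ferroptosis, was at 0.00 (interval -0.14 to 0.14). Blvrb, biliverdin reductase B (-0.03), Msrb1, the selenoprotein that repairs oxidised methionine (0.12), and Esd, which releases glutathione from S-formylglutathione (-0.03), had overlapping groups.

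Among 161 other genes of the pathway measured here, from 9 lists, 1 passed and was lower, against 0.0818% of all genes (0.0573% lower). At an unadjusted p under 0.05 there were 21 (13.0%), 10 higher and 11 lower, against 11.3% of all genes (6.47% higher and 4.82% lower). The median log2 fold change of the 161 genes was 0.01, the same as over all genes to that precision. The gene that passed was Ftl1, ferritin light chain and an NRF2 target, which fell by 0.49 on the log2 scale, from a control level of 887 ± 23 FPKM to 630 ± 17 FPKM (SD, n = 3 each; limma BH adjusted p = 0.012). Without control library 1, knockdown library 2 or knockdown library 3 it did not pass. Reads of Ftl1 may be shared with near-identical copies. Of the 22 other NRF2 target genes tested, 7 (31.8%) were at an unadjusted p under 0.05, of which 6 were lower and 1 higher. Beside these stand the same 11.3% of all genes (4.82% lower and 6.47% higher). Looked up after the values were seen, the other lower ones were Hmox1, heme oxygenase 1 (log2 -0.16, limma BH adjusted p = 0.261), Fth1, ferritin heavy chain (-0.12), the heme transporter Slc48a1 (-0.11), Abcc1 (-0.09) and Aldh7a1 (-0.15). The higher one was the epoxide hydrolase Ephx1 (0.15). The median of that list was -0.02. The lists were chosen with earlier results of these data known, so the shares in them are descriptions and cannot serve as a test.

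The other lists had 0 genes past the limma threshold. Before adjustment, a p under 0.05 was reached by 2 of 16 other NRF2 regulators (12.5%), 3 of 25 thioredoxin-fold proteins, 2 of 18 selenoproteins (11.1%) and 5 of 19 ferroptosis genes (26.3%), where all genes gave 11.3%. It was also reached by 1 of 2 methionine sulfoxide reductases and 1 of 10 genes of the NADPH supply list. For the 16 other regulators of NRF2 the gene with the smallest p was Dpp3, which can displace NRF2 from KEAP1 (log2 -0.16, limma BH adjusted p = 0.334). Of 22 other glutathione enzymes it was the glyoxalase Glo1 (0.12), and 0 had an unadjusted p under 0.05. Of 25 other thioredoxin-fold proteins it was P4hb, protein disulfide isomerase (0.12). Iron-sulfur cluster assembly, the process in which Glrx5 works, had 27 genes with a median of 0.02 and 0 at an unadjusted p under 0.05. Of 18 selenoproteins and selenocysteine factors it was Selenop (0.26), of 2 other methionine sulfoxide reductases Msra (0.15), and of 10 copper chaperone, NADPH supply and other peroxide genes Pon2 (0.15). The 19 other ferroptosis genes had a median of -0.01. For the 6 genes named from these lists, limma BH adjusted p values ranged from 0.295 for Selenop to 0.46 for Glo1.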

How the data were processed

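The 6 libraries were made from total RNA with a ribosomal RNA removal kit and a stranded library kit, per the labels' protocols. The authors deposited 1 FPKM value per gene and library; the unit was read from the values, which are not whole and sum to 224291 to 230292 per library, since the header names none. HISAT2, StringTie, edgeR and the build hg38 stand in the submitters' processing notes, although the identifiers are mouse Ensembl genes. Weak genes had been removed: in every row at least 1 group mean was 0.501 FPKM or more. No column belonged to another sample. Of 12327 identifiers, 12306 matched GENCODE M21 (GRCm38) without the version.

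Depth was estimated from genes with 1 transcript, where FPKM times length falls on whole steps of 1 aligned base. Many candidate depths were searched, and the one that put most genes near a whole number of steps was kept. At that depth, of 310 to 375 genes per library, 65.1% to 67.2% were no more than 0.1 from a whole number. Chance gives 20% at a depth fixed beforehand. The share that chance gives at the best depth of such a search was not estimated.

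Genes that reached 0.5 FPKM in 3 or more of the 6 libraries were tested with limma 3.58.1 (R 4.3.3, empirical Bayes with a mean-variance trend) on log2(FPKM + 1), two-sided, with BH adjustment over all genes, and no covariate. Intervals are 95% from the moderated fit; no count was used. In simulated data for this comparison (12222 genes, 5 runs of 200 changed genes), 69.8% of changes of 0.5 and 95.4% of changes of 1 on the log2 scale were recovered. Each run held more changed genes than the 10 that passed in the data, which makes the BH threshold easier to reach. The simulated noise was independent between genes and libraries. Recovery in the real libraries may therefore be lower, and these shares say little about the members that did not pass. Values in every library are given for Gch1 and for members past the threshold or at an unadjusted p under 0.05; of the other pathway lists, genes past the threshold or, with none, the gene with the smallest p are named, except that 2 genes this rule names are not reported here. Values by library of Glrx, Txnrd1, Slc7a11, Gclc, Gclm and Nfe2l2 were added after they were seen. Members and lists were chosen with earlier results of these data known. Python 3.11.15, numpy 2.4.6, pandas 2.3.3 and scipy 1.17.1 were used. Alternatives were a replicate block, each library left out, quantile normalization, median-of-ratios scaling, no variance trend, no filter, a stricter filter (mean of 5 FPKM), other pseudocounts (0.1, 0.5), and removal of loess trends (span 0.3) on transcript GC content and length.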

Additional observations from a re-analysis of the deposited data

How the results depend on the processing

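Over 604 values of the 38 genes in 16 alternatives, 8 lost the threshold, all of Glrx2, 0 gained it, and 0 called values changed sign; 31 uncalled values, from 12 genes, did. Genes past the threshold, 10 as reported, numbered 6 to 18 with a library left out (18 without control library 2, 6 without knockdown library 2 or 3), and Glrx2 was past it in none of these, so members past the threshold then numbered 0 in each, with 3 to 7 at an unadjusted p under 0.05. Members whose groups do not overlap, 9 as reported, numbered 12 to 14 with a library left out, where fewer libraries make separation easier. There were 14 without control library 2, against 33.9% of all genes in that fit. For the other libraries left out, the share of all genes is not given here. The median log2 fold change of the members, 0.0294, then ranged from 0.0156 to 0.043. With a mean of at least 5 FPKM, 34 members were tested, Glrx2 was removed before the test, and 0 passed, with 4 at an unadjusted p under 0.05. The shares of all genes at an unadjusted p under 0.05 in this fit and with a library left out are not given here. The counts of members therefore do not show whether the members moved apart from all genes. The other scalings moved the median of all genes by less than 0.1 on the log2 scale.

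With the replicate number of the titles as a block, 0 genes and 0 members passed, at 1330 genes and 5 members with an unadjusted p under 0.05. The limma BH adjusted p was 0.287 for Glrx2 and 0.0604 for Gch1. Their log2 fold changes stayed at 0.514 and -0.956, with SEs of 0.063 and 0.064, against 0.054 and 0.061 without the block. The block leaves fewer residual degrees of freedom, which makes the threshold harder to reach. The part of this in the lost calls was not tested. With the block and the GC and length trend removed, 0 genes and 0 members passed again (1342 genes at an unadjusted p under 0.05), at 0.321 for Glrx2. Libraries of the same number had deviations from their group means that correlated at 0.095, 0.059 and 0.094, and those of different numbers at -0.1 to 0.013. Each library thus correlated best with its own number, a hint that comes from the values; the labels do not say what a number marks, and every correlation was below 0.1.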

Other observations

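Txnip binds Txn1, and their levels differed in opposite directions, so the ratio of their FPKM was computed in each library after the values had been seen. It was 1.80, 2.01 and 1.97 in the controls and 1.53, 1.40 and 1.49 after knockdown. All 3 knockdown libraries lay below all 3 controls, with means of 1.93 ± 0.11 and 1.47 ± 0.07 (SD, n = 3 each). Since Txnip was lower and Txn1 higher in every knockdown library than in every control, this separation follows from the levels of the 2 genes, and the ratio is given as a description with no test.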
